A study of Mus musculus with 6 samples.

Results

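Semaphorins are guidance cues, plexins are their receptors, and neuropilins are the co-receptors through which most secreted semaphorins reach the A plexins. The genes of these 3 families were followed in RNA from whole mouse cerebellum at postnatal day 7, on 3 wild-type and 3 knockout arrays. The wild-type samples carried Math1Cre with intact Crebbp. The knockout samples were Math1Cre::CrebbpFl/Fl, so Cre was present in both groups and the floxed Crebbp alleles only in the knockout. Math1 is the granule neuron precursor factor also called Atoh1, so Cre acts in the granule lineage, while the array reads all cells of the cerebellum. The members were all genes with a probe set of exactly 1 symbol that begins with Sema3 to Sema7 or with Plxna, Plxnb, Plxnc or Plxnd and a digit, or is Nrp1 or Nrp2. This gave 32 of 22180 genes: 20 semaphorins, 9 plexins, 2 neuropilins and Plxna4os1, a long non-coding RNA whose symbol matches the pattern and which lies within the span of Plxna4. The sources used here do not say if the Plxna4 and Plxna4os1 probe sets tell the strands apart.

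Semaphorins of class 3 are secreted, those of classes 4 to 6 cross the membrane, and Sema7a is held by a lipid anchor. A bound plexin acts as a GTPase-activating protein on small GTPases and changes the actin and microtubule skeleton of the growth cone or migrating cell. In the developing cerebellum the pair of Sema6a and Plxna2 is known for steering granule neurons as they leave the outer layer and migrate inward, and Plxnb2 for the divisions and migration of granule neuron precursors.

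Of the 32 members, 5 fell in the knockout, 1 rose and 26 did not pass the test (limma adjusted p under 0.05 over all 22180 genes). The falls were the receptor gene Plxna2 and the ligand genes Sema3d, Sema4f, Sema5a and Sema6b, and the rise was the ligand gene Sema7a. The 6 genes are 18.8% of the members, beside 6.67% of all genes. Falls made up 15.6% of the members and 3.94% of all genes, and rises 3.12% and 2.72%. The median log2 difference, knockout minus wild type, was -0.11 over the members and -0.003 over all genes, and the knockout mean was the lower in 24 of 32. In 15 members the 3 values of each group did not overlap, which is 46.9% beside 25% of all genes (5536). In 12 of these the knockout arrays lay below the wild-type arrays (13.1% of all genes did so). In 3 of the 32 members they lay above, as in 2625 of all 22180 genes. All genes are an unlike background in brightness: 0 of 32 members had a mean below the 25th percentile of all values. With the genes below it left out, 673 of 17828 genes rose and 957 fell, beside 1 and 5 members. The share without overlap was not counted for those genes. The log2 scale is that of the deposited values, where a difference of 1 is a 2-fold change, and values of different probe sets are not set against each other.

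**Figure D1:**
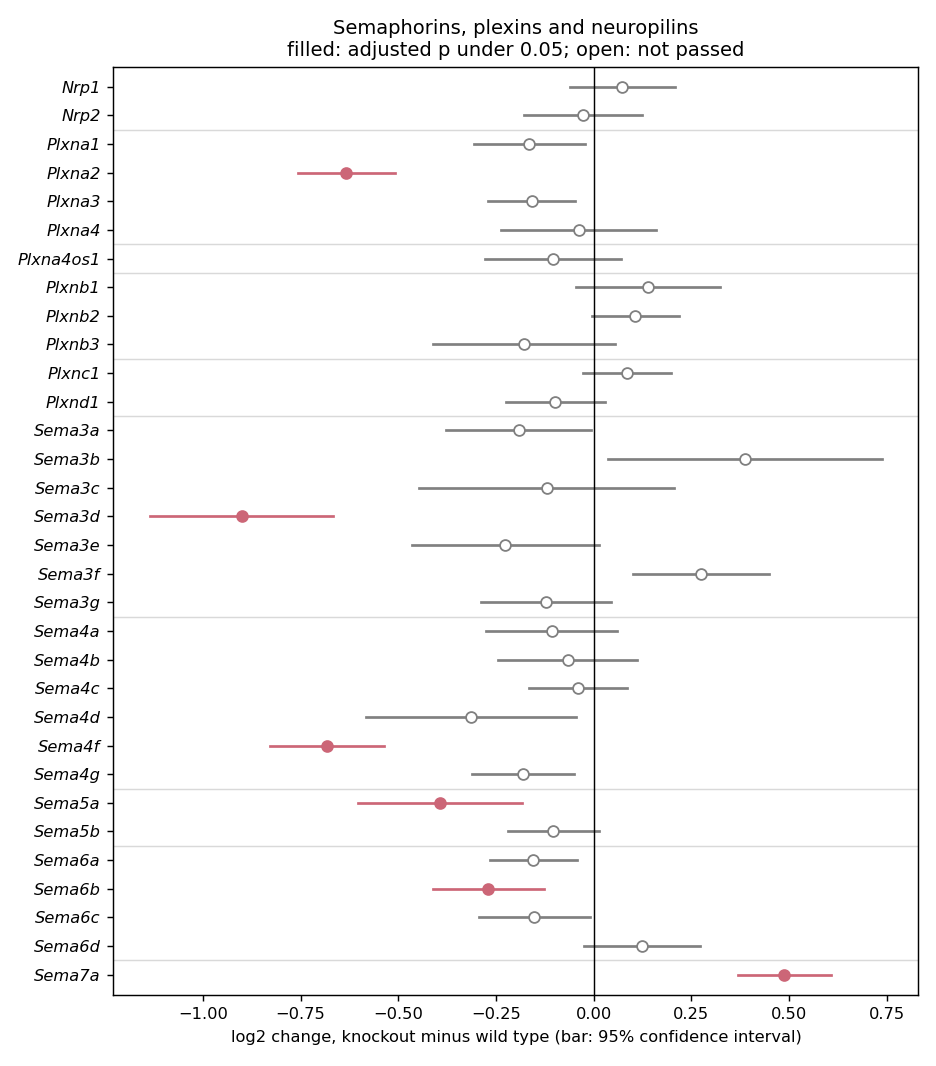
Log2 difference of each of the 32 members (x axis, knockout minus wild type), with its 95% confidence interval from the limma fit over 3 arrays per group; genes are grouped by class, and filled red points passed at an adjusted p under 0.05. Sema3d lies farthest to the left at -0.90 and Sema7a farthest to the right at 0.49.

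Crebbp itself read 11.96, 11.99 and 11.90 in wild type and 11.46, 11.42 and 11.32 in knockout, a fall of 0.56 (SE 0.05, limma adjusted p = 0.000354), so each array lay on the side of its label. The cell type lists gave a common setting for all results below. Maturing granule neuron markers were lower on every knockout array: the mean of the 8 genes ran from 10.4 to 10.6 on wild-type and from 9.61 to 9.84 on knockout arrays, and 7 of 8 fell, among them Cntn2 and Camk4. Of 9 granule precursor markers 3 rose, among them Cxcr4 and Atoh1, and 1 fell. In such bulk RNA, fewer cells of a type and less RNA per cell cannot be told apart. Choroid plexus, a tissue beside the cerebellum, was high on 3 arrays: its marker Ttr lay above 10 on wild-type replicate 1 and knockout replicates 1 and 3. The oligodendrocyte markers were low on knockout replicates 1 and 3. Of 7 meninges markers 0 passed. In 5, among them Col1a1 and Igf2, every knockout array was above every wild-type array, as in 2625 of all 22180 genes. The meninges list averaged 9.02, 9.06 and 9.11 in wild type and 9.18, 9.21 and 9.595 in knockout (median difference 0.31). It was highest on knockout replicate 3, and its part in the results was not tested. Xist was above 12 on wild-type replicates 1 and 2 and knockout replicate 3 and below 6.5 on the other 3, so high and low values occur in each group. Separate animals are not named in the labels, and p-values therefore cover just the variation among these samples, which may be partly technical.

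Among the A plexins, the receptors of class 6 and, through neuropilins, class 3 semaphorins, Plxna2 fell. It read 10.77, 10.89 and 10.70 in wild type and 10.19, 10.11 and 10.16 in knockout. The groups lay far apart beside the spread within each. The fall was 0.63 (SE 0.06, limma adjusted p = 0.000354), a 1.55-fold difference, and Plxna2 passed in all 18 alternative fits (6 that leave out 1 array each and 12 with another setting). Plxna1 and Plxna3 did not pass, although their groups did not overlap. Plxna1, a receptor of many class 3 and class 6 semaphorins, read 10.04, 9.99 and 9.91 against 9.89, 9.86 and 9.69 in knockout (difference -0.16, 95% confidence interval -0.31 to -0.02, adjusted p = 0.177). A dimmer probe set of Plxna1 had a difference of -0.31 (adjusted p = 0.0578 when each probe set was tested on its own). Plxna3, on the X chromosome, read 10.06, 10.004 and 9.98 against 9.80, 9.89 and 9.88 (difference -0.16, interval -0.27 to -0.05, adjusted p = 0.0982). Plxna4, the main partner of neuropilin 1 in sensory axons, had a difference of -0.04 with an interval of -0.24 to 0.16. Its knockout replicate 3 read 8.99, while the other 5 arrays lay between 9.17 and 9.35. Plxna4os1 had a difference of -0.10 (adjusted p = 0.524).

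The B plexins Plxnb1 and Plxnb2 respond to class 4 semaphorins. None of the 3 B plexins passed. Plxnb2 read 11.73, 11.59 and 11.74 in wild type and 11.82, 11.79 and 11.77 in knockout. Its knockout values were all the higher, by little (difference 0.11, 95% confidence interval -0.0045 to 0.22, adjusted p = 0.266). Plxnb1, the receptor of Sema4d, had a difference of 0.14 (interval -0.05 to 0.32), and a second, dimmer probe set had 0.02. Plxnb3, known from oligodendrocytes and X-linked, had a difference of -0.18 (interval -0.41 to 0.05). Plxnc1, the receptor of Sema7a, had a difference of 0.08 (interval -0.03 to 0.198) and Plxnd1, the receptor of Sema3e in vessels and neurons, of -0.098 (interval -0.22 to 0.03), and the groups overlapped for both genes. The neuropilins likewise overlapped, with differences of 0.07 for Nrp1 (interval -0.06 to 0.21) and -0.03 for Nrp2 (interval -0.18 to 0.12).

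The stretches just before the transcription starts of the 6 members that passed are shown because the Crebbp product is known as a coactivator that CREB brings to promoters. They come from RefSeq on GRCm38.p6, a build that is not stated for the array. In the table used, 26 of the 32 members have a start. Each line gives the 250 bases before the start, 5′ to 3′ on the gene's own strand. They lie at chr1:194619579-194619828 (plus strand) for Plxna2, chr5:12382916-12383165 (plus) for Sema3d, chr6:82939770-82940019 (minus) for Sema4f, chr15:32244563-32244812 (plus) for Sema5a, chr17:56140344-56140593 (minus, the more upstream of 2 starts) for Sema6b and chr9:57939862-57940111 (plus) for Sema7a. Capitals mark matches on either strand to the motifs TGACGTCA (the CREB site, CRE), TGACG (its half-site), CAGCTG (an E-box), GGGCGG (a GC-box), CCAAT and TATAAA.
Plxna2: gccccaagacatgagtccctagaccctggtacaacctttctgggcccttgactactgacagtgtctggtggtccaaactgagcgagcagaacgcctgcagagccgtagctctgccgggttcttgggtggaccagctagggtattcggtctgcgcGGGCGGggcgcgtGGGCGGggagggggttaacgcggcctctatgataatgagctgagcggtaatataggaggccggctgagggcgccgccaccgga
Sema3d: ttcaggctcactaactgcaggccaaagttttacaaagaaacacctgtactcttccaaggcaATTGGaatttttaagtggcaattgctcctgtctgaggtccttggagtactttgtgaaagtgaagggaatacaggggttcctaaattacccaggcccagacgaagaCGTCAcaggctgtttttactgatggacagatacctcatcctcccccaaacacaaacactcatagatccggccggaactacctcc
Sema4f: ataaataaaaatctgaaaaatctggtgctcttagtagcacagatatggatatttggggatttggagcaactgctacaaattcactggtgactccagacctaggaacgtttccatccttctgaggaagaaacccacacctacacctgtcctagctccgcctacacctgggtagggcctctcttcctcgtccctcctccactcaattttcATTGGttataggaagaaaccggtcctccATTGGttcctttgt
Sema5a: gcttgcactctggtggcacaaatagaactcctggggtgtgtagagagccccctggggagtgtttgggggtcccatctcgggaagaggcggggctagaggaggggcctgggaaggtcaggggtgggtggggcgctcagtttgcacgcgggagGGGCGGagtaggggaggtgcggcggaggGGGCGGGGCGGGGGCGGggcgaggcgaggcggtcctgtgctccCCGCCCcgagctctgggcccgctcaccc
Sema6b: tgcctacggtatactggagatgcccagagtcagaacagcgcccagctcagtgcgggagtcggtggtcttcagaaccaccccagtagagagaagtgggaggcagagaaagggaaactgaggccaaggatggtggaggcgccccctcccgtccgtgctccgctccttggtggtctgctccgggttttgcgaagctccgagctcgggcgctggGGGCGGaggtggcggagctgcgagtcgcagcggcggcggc
Sema7a: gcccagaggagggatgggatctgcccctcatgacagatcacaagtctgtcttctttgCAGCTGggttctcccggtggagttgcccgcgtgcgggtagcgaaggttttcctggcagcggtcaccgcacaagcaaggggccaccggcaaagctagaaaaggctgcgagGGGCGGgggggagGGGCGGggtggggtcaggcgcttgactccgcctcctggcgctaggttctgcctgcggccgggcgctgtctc
The CRE was in none of the 26 member windows, and it is in 1.55% of all 32851 such windows in the table. Member windows are 1 per gene, at its most upstream start, while all windows take in every start in the table. The shares below therefore set unlike sets of windows side by side. The half-site occurred in 1 of 26 members, Sema3d, where it starts 84 bases before the start site; 17.8% of all windows hold it. No half-site here was part of a full CRE. GC-boxes were in 20 of 26 member windows against 32.7% of all windows. Sema5a has 5 of them, 3 of which run into each other, Plxna2 and Sema7a have 2 each and Sema6b has 1, while Sema3d and Sema4f have none. The GC content follows the same split, at 46.8% for Sema3d and 46.0% for Sema4f against 62.8% to 72.0% for the other 4, with a median of 52.4% over all windows. Sema4f has 2 CCAAT matches and Sema3d has 1. Sema7a, the gene that rose, is the one of the 6 with the E-box, which is in 5 of 26 member windows and 13.0% of all windows, and the TATA motif is in 0 of 26 and 12.4%. These are matches of letters and say nothing of which factor binds there.

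Among the secreted class 3 ligands, 1 of 7 passed. Sema3d, which signals through neuropilins to axons and vessels, read 8.93, 8.85 and 9.21 in wild type and 7.96, 8.27 and 8.06 in knockout. Every knockout array lay well below every wild-type array. The fall was 0.90 (SE 0.11, limma adjusted p = 0.00141), a 1.87-fold difference, the largest in size among the 32 members. Sema3d passed in all 18 alternative fits, where its fall ran from 0.77 to 0.99. Of its neighbours on chromosome 5, Sema3a lies next to it with 0 protein-coding genes between, Sema3e follows after 3 further genes and Sema3c after another 15. These 3 neighbours did not pass. Sema3a, the classic repellent that acts through Nrp1, had a difference of -0.19 (interval -0.38 to -0.01, adjusted p = 0.229), Sema3e of -0.23 (interval -0.46 to 0.01) and Sema3c of -0.12 (interval -0.45 to 0.21). The probe sets of Sema3c and Sema3e have means just below the median of the arrays, where no detection call exists.

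The other class 3 genes leaned both ways. Sema3f, which repels axons through Nrp2, read 8.298, 8.07 and 8.06 in wild type and 8.43, 8.35 and 8.46 in knockout. The knockout arrays were all higher, but the difference of 0.28 (SE 0.08) missed the threshold (adjusted p = 0.0663). It passed without wild-type replicate 1, the highest of its group (difference 0.35, adjusted p = 0.0411, range over the alternatives 0.0411 to 0.384). Sema3b, its near neighbour on chromosome 9 with 3 genes between, read 7.06, 7.12 and 7.05 against 7.42, 7.101 and 7.86. The higher knockout values were those of replicates 1 and 3, while replicate 2 lay within the wild-type range. The difference was 0.39 (SE 0.16, adjusted p = 0.196), and it passed without knockout replicate 2 (0.57, adjusted p = 0.0308, range 0.0308 to 0.984). The 9 measured choroid plexus markers of 11 averaged 7.85, 7.15 and 7.23 in wild type and 8.86, 7.15 and 9.53 in knockout, with 0 of 9 past the threshold. Wild-type replicate 1 was the highest of its group in this list, at 7.85, but not for Sema3b, at 7.06. Sema3b was set beside the list after its values were seen. With that list mean as a covariate the difference of Sema3b was 0.09, but this mean differs between the groups too and takes up part of the genotype difference. The part of choroid plexus RNA in the result was not tested. Sema3g, a ligand of Nrp2, had a difference of -0.12 (adjusted p = 0.419).

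In class 4, whose members cross the membrane, 1 of 6 passed and the knockout mean was lower in all 6. Sema4f, whose tail binds the synaptic scaffold PSD-95, read 9.31, 9.49 and 9.43 in wild type and 8.74, 8.65 and 8.796 in knockout. The gap between the groups was wide beside the spread within them. The fall was 0.68 (SE 0.07, limma adjusted p = 0.000473), a 1.61-fold difference, and Sema4f passed in all 18 alternative fits with falls of 0.64 to 0.81. Sema4g read 9.81, 9.89 and 9.76 against 9.73, 9.61 and 9.57 without overlap (difference -0.18, adjusted p = 0.104). Sema4d, the ligand of Plxnb1 that oligodendrocytes carry, read 8.72, 8.77 and 8.71 against 8.51, 8.66 and 8.09. Knockout replicate 3 stood far below the rest, and the difference of -0.31 (SE 0.12) did not pass (adjusted p = 0.172). Sema4a, Sema4b and Sema4c, the ligand of Plxnb2, overlapped between groups with differences of -0.11, -0.07 and -0.04.

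**Figure D2:**
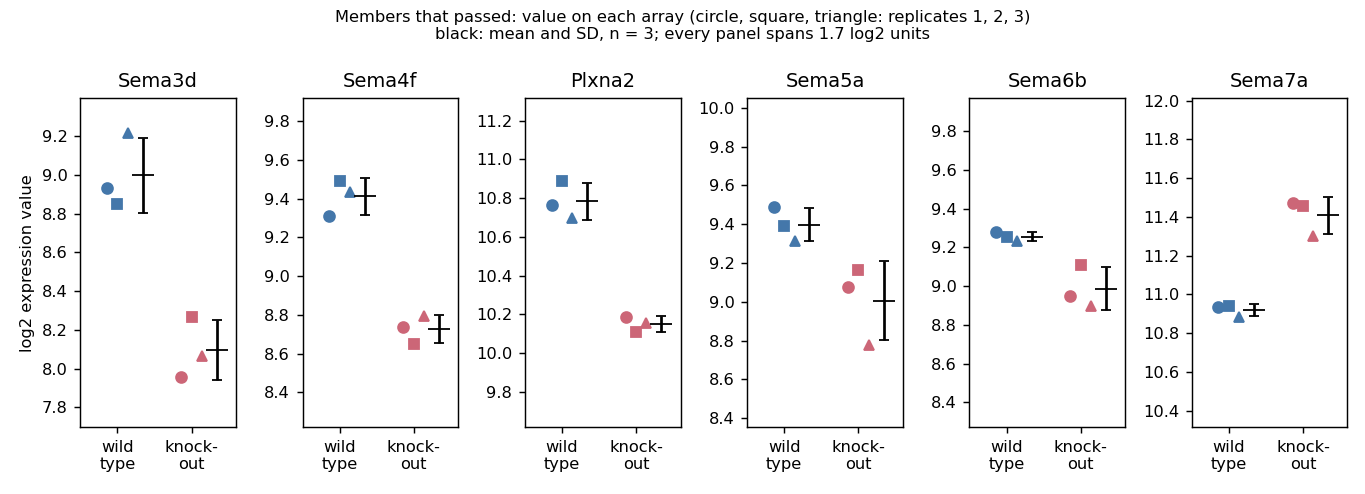
Log2 expression value (y axis) of the 6 members that passed, by group (x axis); circle, square and triangle are replicates 1, 2 and 3, the black mark is the mean with its SD (n = 3), and every panel spans the same height. In each panel the groups do not overlap, with the narrowest gap for Sema6b, between 9.11 and 9.23.

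Both class 5 genes, transmembrane proteins with thrombospondin repeats, had lower knockout values, and Sema5a fell. Sema5a read 9.49, 9.39 and 9.32 in wild type and 9.07, 9.16 and 8.77 in knockout, with knockout replicate 3 the lowest. The fall was 0.39 (SE 0.09, limma adjusted p = 0.0373). It no longer passed when wild-type replicate 1, 2 or 3 was left out (adjusted p = 0.151, 0.103 and 0.0543), nor without knockout replicate 1 (0.0664), and its adjusted p over all alternatives ran from 0.0119 to 0.512. The fall was 0.28 without knockout replicate 3. Sema5b read 9.30, 9.28 and 9.22 against 9.198, 9.17 and 9.12, a small gap without overlap that did not pass (difference -0.10, adjusted p = 0.313).

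Of the 4 class 6 genes, the ligands of A plexins, 1 fell. Sema6a, the partner of Plxna2, read 12.21, 12.20 and 12.10 in wild type and 12.06, 12.05 and 11.94 in knockout. The knockout arrays were all lower by a small step, a difference of -0.15 (interval -0.27 to -0.04) that did not pass (adjusted p = 0.108). Sema6b, a ligand of Plxna4 and Plxna2, read 9.28, 9.26 and 9.23 against 8.95, 9.11 and 8.90. The fall was 0.27 (SE 0.06, limma adjusted p = 0.0362), with knockout replicate 2 nearest to wild type. Leaving out wild-type replicate 1, 2 or 3 (adjusted p = 0.137, 0.0993 and 0.0711) or knockout replicate 1 or 3 (0.109 and 0.0850) ended the call, as did Xist as a covariate (0.0560), within a range of 0.0134 to 0.697 over all alternatives. Sema6c read 8.48, 8.46 and 8.61 against 8.39, 8.32 and 8.38 (difference -0.15, adjusted p = 0.211). Sema6d, a ligand of Plxna1 and the 1 gene of its class with a higher knockout mean, had a difference of 0.12 (adjusted p = 0.347). It passed without knockout replicate 3 (0.20, adjusted p = 0.0401, range 0.0401 to 0.654).

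Sema7a, which acts on axons through beta-1 integrin and Plxnc1, was the only member that rose. It read 10.93, 10.94 and 10.88 in wild type and 11.47, 11.45 and 11.30 in knockout. All knockout arrays stood well above all wild-type arrays, with replicate 3 the lowest of both groups. The rise was 0.49 (SE 0.05, limma adjusted p = 0.000967), a 1.40-fold difference, and Sema7a passed in all 18 alternative fits, where the rise ran from 0.46 to 0.58.

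The 6 members divide by how their calls held. Plxna2, Sema3d, Sema4f and Sema7a passed with any array left out, while Sema5a passed in 10 and Sema6b in 8 of 18 alternative fits. Leaving out any 1 wild-type array, or knockout replicate 1, left 3 members that fell. Without knockout replicate 3, 4 fell. A second member passed upward without wild-type replicate 1 (Sema3f) or knockout replicate 2 (Sema3b) or 3 (Sema6d). Without the 3 arrays with Ttr above 10, a fit of 2 wild-type arrays against 1 knockout array whose spread is assumed to be that of the others, 3 members fell and 1 rose. There the differences of Plxna2, Sema3d, Sema4f and Sema7a were -0.68, -0.77, -0.81 and 0.54, and those of Sema5a and Sema6b -0.19 and -0.13.

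**Figure D3:**
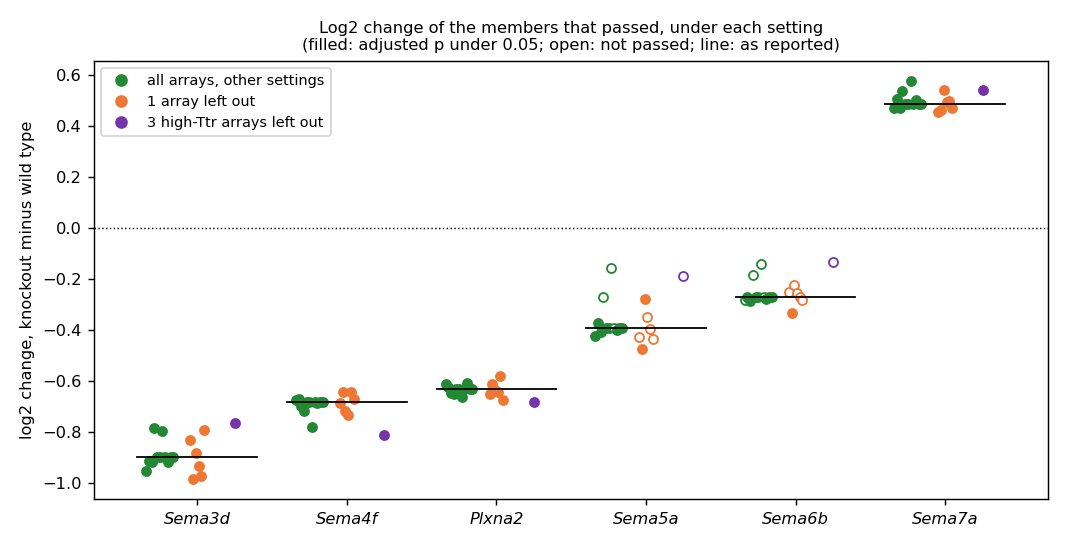
Log2 difference (y axis, knockout minus wild type) of the 6 members that passed, under each alternative fit; green points use all 6 arrays, orange points leave out 1 array, purple points leave out the 3 arrays with Ttr above 10, filled points passed and black lines give the reported value. Sema5a and Sema6b hold the open points, at -0.16 to -0.44 and -0.13 to -0.28.

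Some members shared the order of the knockout arrays with the oligodendrocyte lineage markers. The 8 measured genes of that list of 9 averaged 9.75, 9.67 and 9.65 in wild type and 9.26, 9.64 and 8.93 in knockout. Of the 8 genes 1 fell, the myelin gene Mog. In 5 of the 8 every knockout array lay below every wild-type array, as in 13.1% of all genes. In 6 of the 32 members, Sema3e, Sema4a, Sema4d, Sema5a, Sema6b and Plxnb3, the lowest value was on knockout replicate 3, the next lowest on knockout replicate 1 and the highest knockout value on replicate 2. These 6 genes were picked by that order, so their likeness to the list mean follows from the pick. The share of all genes with this order was not counted. Sema5a and Sema6b are the 2 of the 6 that passed. With the list mean as a covariate, an alternative chosen after this order was seen in the last 4 of these genes, the differences were -0.12 for Sema3e, 0.013 for Sema4a, 0.0097 for Sema4d, -0.16 for Sema5a (adjusted p = 0.45), -0.14 for Sema6b (adjusted p = 0.423) and 0.09 for Plxnb3. In the same fit Plxna2 (-0.66), Sema3d (-0.797), Sema4f (-0.78) and Sema7a (0.58) passed. The list mean also differs between the groups, so the covariate takes up part of the genotype difference, and the part of oligodendrocyte RNA in the result was not tested further.

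**Figure D4:**
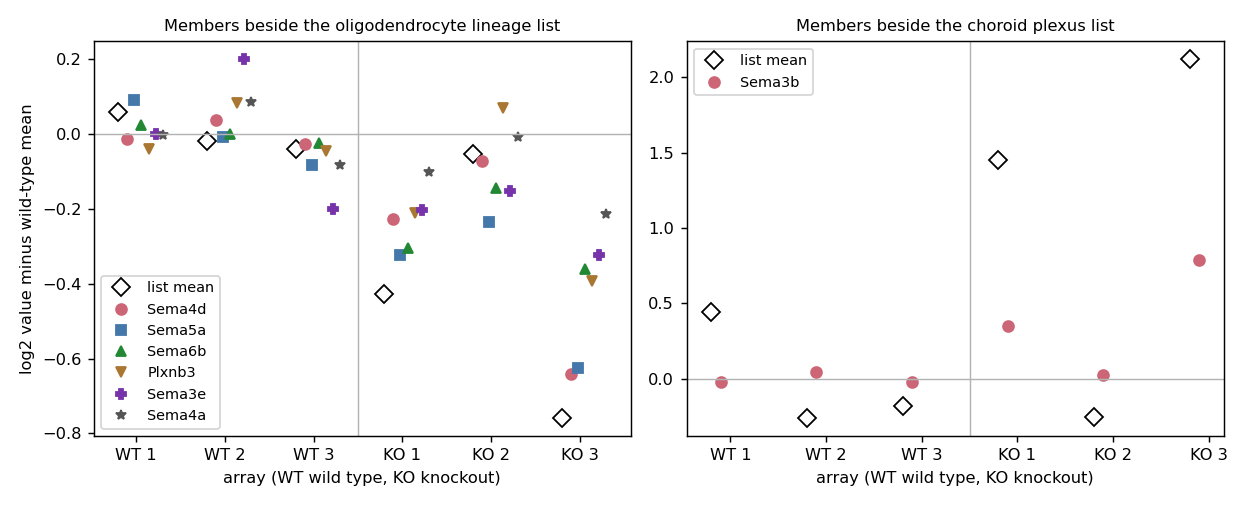
Value on each array minus the wild-type mean (y axis, log2) for members and for the mean of a marker list, by array (x axis): left, Sema4d, Sema5a, Sema6b, Plxnb3, Sema3e and Sema4a beside the oligodendrocyte lineage list, right, Sema3b beside the choroid plexus list. Knockout replicates 1 and 3 are low on the left and high on the right, and knockout replicate 2 is the highest knockout array for each gene on the left and the lowest on the right. The genes on the left were picked by this order of the arrays, and Sema3b was added after its values were seen.

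Co-receptors and signalling partners were followed in a list of 50 genes taken from general knowledge of the pathway, of which 47 were measured. The list was written with earlier results of these data known, so its shares are not independent of them. In the knockout 8 fell, 1 rose and 38 did not pass, with a median difference of -0.07. The falls are 17.0% of the list beside 3.94% of all genes, and the rise is 2.13% beside 2.72%. Among the links from receptor to cytoskeleton, Limk1, the kinase that inactivates the actin-severing protein cofilin, read 10.75, 10.62 and 10.53 in wild type and 10.22, 10.29 and 10.15 in knockout (fall 0.41, SE 0.06, limma adjusted p = 0.00504). The groups lay clearly apart. Micall2, a relative of the actin-oxidizing MICAL enzymes that bind plexins, read 8.23, 8.19 and 8.23 against 7.83, 7.75 and 7.75 (fall 0.44, SE 0.06, adjusted p = 0.00372). Rnd2, a small GTPase of migrating neurons, fell by 0.36 (SE 0.05, adjusted p = 0.00385). Cdk5r1, the activator p35 of the kinase Cdk5, fell by 0.35 (SE 0.06, adjusted p = 0.00643). Rnd3, a close relative of Rnd2, was the gene that rose, from 10.89, 10.76 and 10.77 to 11.16, 11.02 and 11.09 (rise 0.28, SE 0.05, adjusted p = 0.0156).

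Collapsin response mediator proteins carry Sema3a signals to microtubules. Dpysl5 fell by 0.35 (SE 0.06, adjusted p = 0.00983) and Dpysl3 by 0.25 (SE 0.05, adjusted p = 0.0261), while Crmp1 had a difference of -0.17 (adjusted p = 0.0921). Dpysl2 (difference -0.13, limma adjusted p = 0.226) and Dpysl4 (-0.15, 0.131) did not pass either. The adhesion molecules L1cam and Nrcam, which join neuropilins in receptor complexes, fell by 0.23 (SE 0.04, adjusted p = 0.0126) and 0.21 (SE 0.05, adjusted p = 0.0373). Chl1, a further adhesion molecule of the list, had a difference of -0.02 (limma adjusted p = 0.898). Among the genes that did not pass, those with the smallest p besides Crmp1 were Mical2 (difference -0.32, adjusted p = 0.0569), Mical3 (-0.16, 0.0936) and the cofilin gene Cfl1 (-0.13, 0.103). Limk1, Rnd2, Micall2 and Cdk5r1 passed with any array left out. Dpysl5 and L1cam missed the threshold when wild-type replicate 1 was left out (adjusted p = 0.0602 and 0.0565). Rnd3 missed it when wild-type replicate 2 (0.0605) or knockout replicate 1 (0.0591) was. For Dpysl3 the same held for wild-type replicate 1, 2 or 3 (adjusted p = 0.119, 0.0706 and 0.0556) and knockout replicate 2 (0.0519). For Nrcam it held for wild-type replicates 1 and 2 (0.164 and 0.101) and knockout replicates 1 and 3 (0.0874 and 0.0861). Without the arrays with Ttr above 10, 0 of the 47 passed in either direction, with differences of -0.46 for Micall2 and -0.28 for Limk1. With the oligodendrocyte list mean as a covariate 1 fell, Micall2, and 0 rose.

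**Figure D5:**
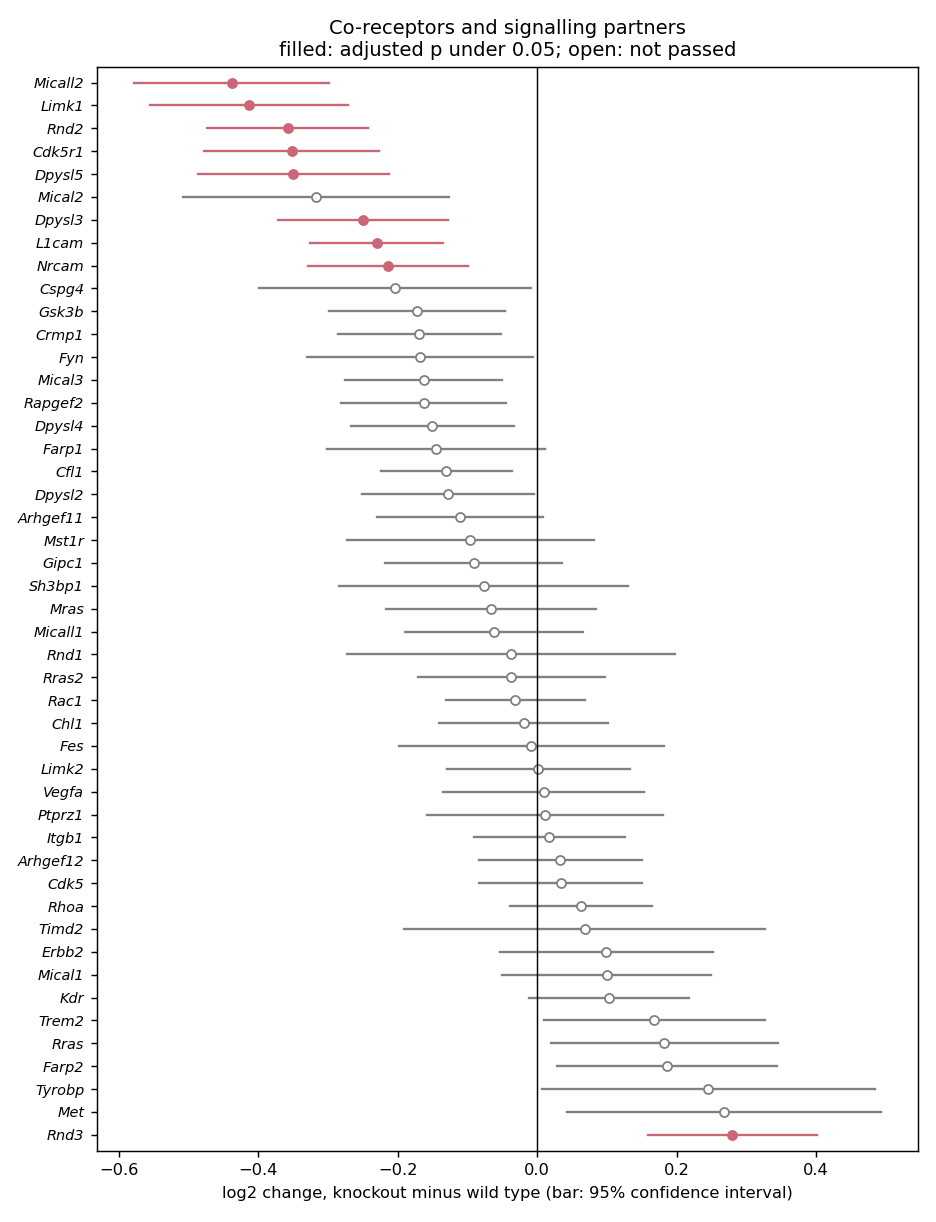
Log2 difference (x axis, knockout minus wild type) of the 47 measured co-receptor and signalling genes, in order of size, with 95% confidence intervals over 3 arrays per group; filled red points passed at an adjusted p under 0.05. Micall2 is at -0.44 and Rnd3, the gene that rose, at 0.28.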

How the data were processed

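The authors deposited log2 expression values per probe set and array, and per the submitters' processing notes the tools were oligo and RMA, with no version named, and the sources used here do not give the filters. Of 41345 probe sets, 23521 had 1 symbol in GEO's platform annotation, 1814 several and 16010 none, and only the first were used. A gene with several such probe sets was read from the brightest on average. The contrast of knockout minus wild type was fitted by limma 3.58.1 under R 4.3.3 (lmFit, eBayes with a trended prior, two-sided, Benjamini-Hochberg adjustment over 22180 genes), and the script was tested on simulated data. Array medians ran from 7.25 to 7.29, and the number of arrays limits the precision. All members are named; per-array values are given for those that passed, those without overlap and those with the brightest probe sets, and a few others (Sema3b among them) were added after their values were seen. Partner genes are named where they passed or were among the 4 smallest p that did not, with Dpysl2, Dpysl4 and Chl1 added. Others of the marker lists are named by smallest p, with Ttr, Mog and Xist beside them. The members and lists were chosen with earlier results of these data known. Sequences were read with Python 3.11.15 and pandas 2.3.3, and plots drawn with matplotlib 3.10.9. Markers of Purkinje cells, interneurons and endothelium had 0 genes past the threshold, those of microglia 1 rise, those of Bergmann glia and astrocytes 2 rises and 1 fall, and of 5 erythrocyte genes 0 were measured under these symbols.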

Additional observations from a re-analysis of the deposited data

How the results depend on the processing

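Counts as reported were 604 rises and 875 falls over all genes, 1 and 5 among the members and 1 and 8 in the partner list. Without a trend in the prior they were 184 and 310, 1 and 3, and 0 and 4. Under the choroid plexus mean used as a covariate they were 299 and 336, 1 and 3, and 1 and 4, and without the arrays with Ttr above 10 (3 arrays fewer) 112 and 124, 1 and 3, and 0 and 0. With the oligodendrocyte lineage mean as a covariate, chosen after seeing the data, they were 166 and 206, 1 and 3, and 0 and 1. Leaving out 1 array at a time, the all-gene rises ran from 199 to 478 and falls from 366 to 800, the members' from 1 to 2 and 3 to 5, and the list's from 0 to 1 and 4 to 8. Some of these fits used fewer arrays, and the cause of the shifts was not tested. A robust prior, dim genes left out, equal medians, repeated quantile normalization, array weights, Xist as a covariate and each probe set on its own kept every count within 1.5 times.

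Every member whose difference turned sign had not passed in the reported fit. With the choroid plexus covariate Plxna4 was at 0.080, Plxnb3 at 0.024 and Sema4c at 0.022. Without the arrays with Ttr above 10, Plxna4 was at 0.13, Plxnb3 at 0.051, Sema4b at 0.057 and Sema4c at 0.027. With the oligodendrocyte covariate Nrp2 was at 0.011, Plxna4 at 0.17, Plxnb3 at 0.086, Sema3b at -0.051, Sema4a at 0.013, Sema4b at 0.072, Sema4c at 0.014 and Sema4d at 0.0097. With 1 array left out Nrp2 ran from -0.088 to 0.019, Plxna4 from -0.11 to 0.072 and Sema4b from -0.12 to 0.0089.

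The labels do not say if the replicate numbers pair the arrays. Deviations of same-numbered arrays from their group means correlated at 0.013, 0.030 and -0.13, and 0 of 6 arrays correlated best with its own number. With 3 arrays per group these values cannot decide if a pairing exists. With the replicate block 723 genes rose and 1078 fell, 1 member rose and 6 fell, and 1 partner gene rose and 10 fell; the sixth member was Sema6a (adjusted p = 0.0333). The values carry no background measure, so the 3 members with means below the overall median of 7.27 (Sema3c, Sema3e and Plxna4os1) have no detection limit here.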
